A study of Mus musculus with 18 samples.

Results

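The extracellular matrix and integrin genes were examined in RibOxi-seq counts of the mouse mammary carcinoma line 4T1. The group was set by gene name and held every collagen chain, laminin chain and integrin chain listed in the table, together with fibronectin (Fn1), Sparc, tenascin C (Tnc) and thrombospondin (Thbs1). It came to 83 of the 19736 gene names, with 26 collagen genes other than the fibril-forming and type IV collagens, 11 fibril-forming collagens, 6 type IV collagens, 11 laminin chains, 17 integrin alpha chains, 8 integrin beta chains and 4 glycoproteins. RibOxi-seq reads the 3′ ends of RNA fragments that survive oxidation, which a methylated ribose withstands. Each count is 1 read ending at 1 genomic position of poly(A)-enriched RNA, so a gene total also rises and falls with the amount of its mRNA.

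Each genotype (4T1 WT, Snord67KO-1, Snord67KO-2) had 3 biologic replicates. Both knockouts are single-cell clones made with Cas9 and paired sgRNAs against the small nucleolar RNA Snord67, so each knockout genotype is represented by 1 clone. All cells, the 4T1 WT cells included, carried mCherry and Renilla luciferase. The 9 oxidized libraries were used, and the 9 control libraries were not analysed here.

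Total counts were 625093 to 737219 in 4T1 WT, 491836 to 686776 in Snord67KO-1 and 212463 to 423278 in Snord67KO-2. Values are given as counts per 1000000 counts of a library (CPM), and 0 counts allow up to 4.07 CPM in the deepest library and 14.1 CPM in the shallowest, the first library of Snord67KO-2, by counting error alone. A column of the table marks some positions as mispriming, and these positions were left out of gene totals. They held 1.38% to 17.8% of a library, with the highest share in 4T1 WT replicate 2. Inside the annotated Snord67 gene there was 1 count, from Snord67KO-1 replicate 1, so these counts cannot check the knockout. Of 12 mammary epithelial markers, 10 had at least 10 exon counts, and their summed level was 459 to 686 CPM in 4T1 WT, 900 to 978 CPM in Snord67KO-1 and 770 to 891 CPM in Snord67KO-2. Of 9 fibroblast markers, 5 (Dcn, Lum, Dpt, Thy1 and Mfap5) were at 0 in every library, and the summed level was 4.71 to 14.2 CPM with no group apart. The 7 endothelial and 8 leukocyte markers summed to at most 8.91 and 5.94 CPM.

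The extracellular matrix is built from secreted proteins. Fibrillar collagens give tensile strength, and type IV collagens and laminins form the sheet-like basement membrane under epithelia. Fibronectin forms fibrils that cells pull on. Integrins are the cell surface receptors for these proteins, each made of an alpha and a beta chain. The beta 1 chain pairs with many alpha chains, among them alpha 3 and alpha 6, which bind laminin. The alpha 6 beta 4 pair sits in hemidesmosomes. In breast cancer cells these genes are followed because they bear on adhesion, migration and invasion.

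The members held 25294 unmarked counts, between 0.435% and 0.615% of each library. Few of the members carried most of the exon counts. Per kilobase of annotated exon, integrin beta 1 (Itgb1) had 72.7 CPM per kb and fibronectin 64.3 CPM per kb over the 9 libraries, followed by Itga3 with 28.4, Lamb1 with 17.6, Thbs1 with 11.2 and Col8a1 with 10.0 CPM per kb. In 4T1 WT alone Itgb1 (59.1 CPM per kb) stood above fibronectin (29.6 CPM per kb), whereas in Snord67KO-1 fibronectin reached 90.8 and Itgb1 85.2 CPM per kb. In Snord67KO-2 the pair was close, at 72.7 CPM per kb for fibronectin and 73.7 for Itgb1. The fibrillar collagens that mark stroma were almost without counts, with 4 counts in Col1a1, 2 in Col1a2 and 1 in Col3a1 over all libraries.

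Not all counts of a member lay in its mRNA. Of the 83 members, 12 had counts only outside annotated exons, among them Lama2, Col23a1, Col19a1 and Col26a1. Itga9 had 7805 unmarked counts, of which 0.0384% were in exons, and Col6a6 had 4462, of which 0.0224% were in exons. In contrast, 97.0% of the 3648 counts of Fn1, 97.5% of the 1492 counts of Itgb1 and 98.5% of the 334 counts of Thbs1 were exonic. With Itga9 and Col6a6 set aside, the exonic share of member counts averaged 85.2% ± 2.27 for 4T1 WT, 81.2% ± 5.99 for Snord67KO-1 and 91.1% ± 0.778 for Snord67KO-2 (SD, n = 3 each). The lowest single share, 74.4%, was that of Snord67KO-1 replicate 1, which also had the highest outside-exon level, 1012 CPM against 193 to 596 CPM in the other 8 libraries. Results are therefore given for all unmarked positions and, where the call or size differs, for exon positions alone.

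**Figure D1:**
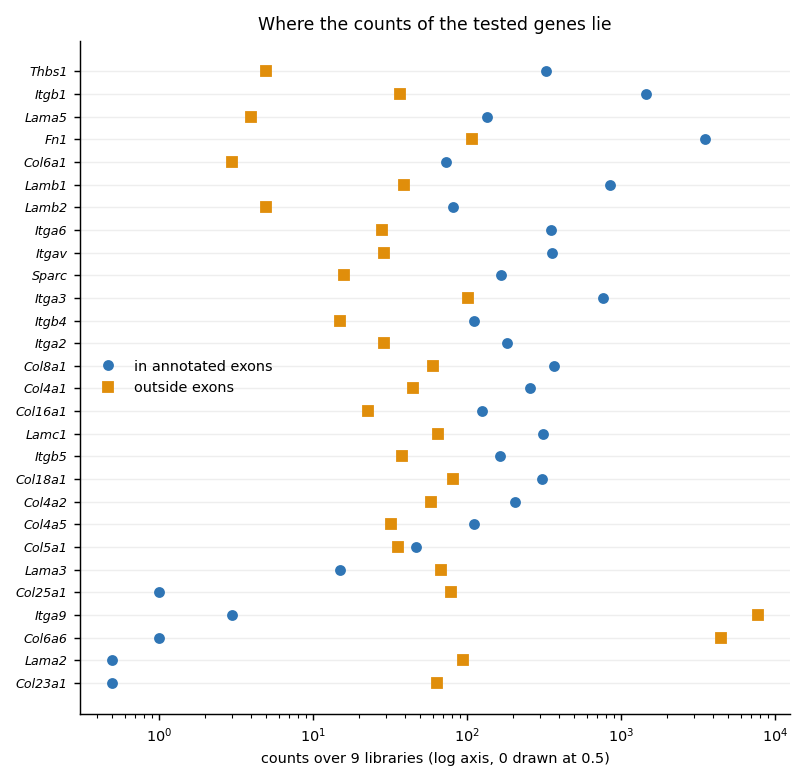
Unmarked counts in exons (circles) and outside exons (squares) of 28 tested members, summed over the 9 libraries, on a log axis with 0 drawn at 0.5, ordered by exonic share. Itga9, Col6a6, Col25a1, Col23a1, Lama2 and Lama3 have most of their counts outside exons, and the other 22 have most in exons.

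The Itga9 and Col6a6 counts sat in short stretches inside introns. On chromosome 9, positions 118674800 to 118675099 within Itga9 (GRCm38, plus strand of the gene) held 7386 counts at 107 positions, 94.6% of the unmarked Itga9 counts. A second Itga9 stretch, from 118837415 to 118838044, held 359 counts. For Col6a6, positions 105819304 to 105819532 of the same chromosome held 4442 counts at 108 positions, 99.6% of its counts. No annotated exon of Itga9 or Col6a6 lies in these stretches, and exons of other genes were not looked up there. The Itga9 stretch had 1877, 1626 and 1694 CPM in the 4T1 WT replicates, 1147, 1204 and 1465 CPM in Snord67KO-1 and 1591, 1478 and 1536 CPM in Snord67KO-2, so that every knockout library was below every 4T1 WT library in CPM. In the edgeR fit, which is normalized across libraries, the Itga9 total was not called in Snord67KO-2 (log2 fold change -0.14 ± 0.18, SE, adjusted p = 0.748). The position with the most counts in this stretch, 118674952, had 754 counts over the 9 libraries, followed by 118674956 with 702. The Col6a6 stretch had 1449, 840 and 1077 CPM in 4T1 WT, 668, 687 and 968 CPM in Snord67KO-1 and 607, 673 and 789 CPM in Snord67KO-2, and here 4T1 WT replicate 2 fell below Snord67KO-1 replicate 3. These totals say nothing about integrin alpha 9 mRNA, for which 3 exon counts were found, or about the collagen VI alpha 6 mRNA, for which 1 was found.

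**Figure D2:**
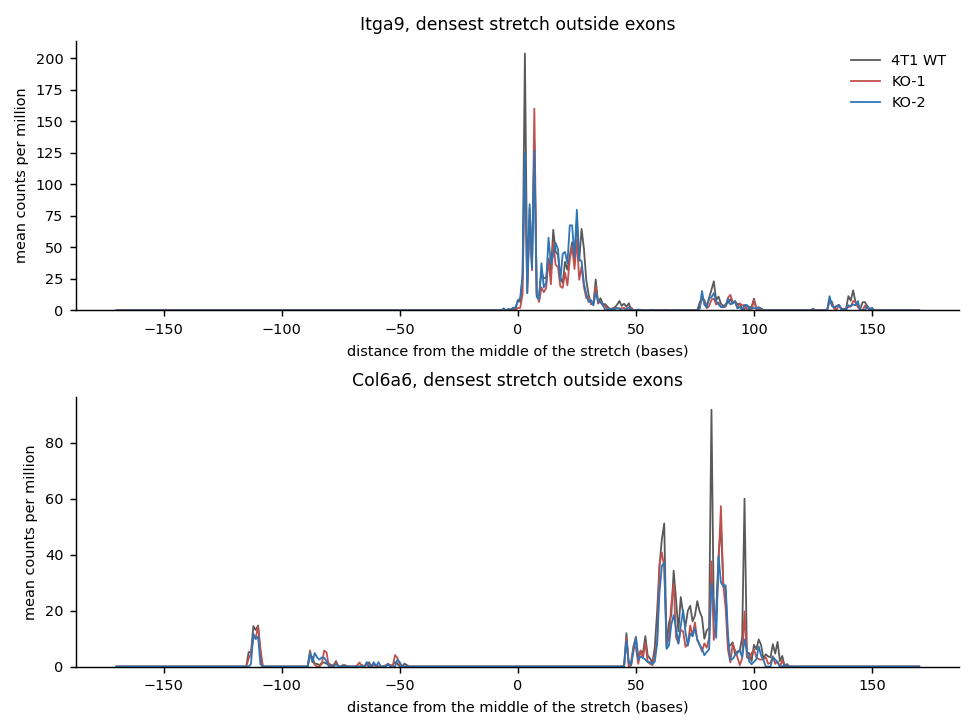
Mean CPM at each position (3 libraries per genotype) across the densest intronic stretch of Itga9 (top) and Col6a6 (bottom), against the distance in bases from the middle of the stretch. In both genes the counts of the 3 genotypes fall on the same stretch of bases, with the 4T1 WT maximum highest.

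Of the 83 members, 29 reached at least 10 counts in at least 3 libraries, and 54 did not. The members that did not pass had 1 to 63 counts each. Together they had 117, 139 and 130 CPM in 4T1 WT, 659, 250 and 322 CPM in Snord67KO-1 and 127, 125 and 191 CPM in Snord67KO-2. In exons alone the same 54 members had 46.4 to 54.8 CPM in 4T1 WT, 48.1 to 108 CPM in Snord67KO-1 and 57.0 to 85.1 CPM in Snord67KO-2, so the high total of Snord67KO-1 replicate 1 was mostly outside exons. Of the glycoproteins, Tnc did not pass, with 29 counts in all, 0, 4 and 3 in the 4T1 WT replicates.

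With edgeR's quasi-likelihood test over all genes, 10 members were called when the mean of the clones was set against 4T1 WT (the average contrast), 9 higher and 1 lower. Over the 5748 genes tested the background was 12.0% called, 6.61% higher and 5.39% lower. For Snord67KO-1 against 4T1 WT, 16 members were called, 12 higher and 4 lower, where the background was 20.2% called, 11.6% higher and 8.65% lower. For Snord67KO-2 against 4T1 WT, 3 were called higher and 0 lower, where the background was 3.98% called, 3.06% higher and 0.922% lower. Between the clones 6 members differed, 2 higher and 4 lower in Snord67KO-2, where the background was 6.38% called, 2.84% higher and 3.55% lower. With 1 library left out, the lowest of these counts were 5 in the average contrast and 1 in Snord67KO-2 without Snord67KO-2 replicate 3, 6 in Snord67KO-1 without Snord67KO-1 replicate 1 and 2 between the clones without Snord67KO-2 replicate 1 or 2. The median log2 fold change of the 29 tested members was 0.46 in the average contrast, beside -0.03 over all genes tested. In exons alone, 10 of 23 tested members were called in the average contrast (background 15.3%), 13 in Snord67KO-1 (background 19.1%), 4 in Snord67KO-2 (background 5.19%) and 4 between the clones (background 3.12%). Col16a1, Col18a1 and Col4a5 were called in the average contrast in exons and not over all positions. A member that is high in 1 genotype could pass the count minimum through that genotype, as Col5a1, Col6a1 and Col23a1 did through Snord67KO-1. Itgb4 and Lamb2 reached 10 counts in knockout libraries only. The numbers of members called therefore describe the members and support no statement on the group. Both clones were compared with the same 4T1 WT libraries.

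**Figure D3:**
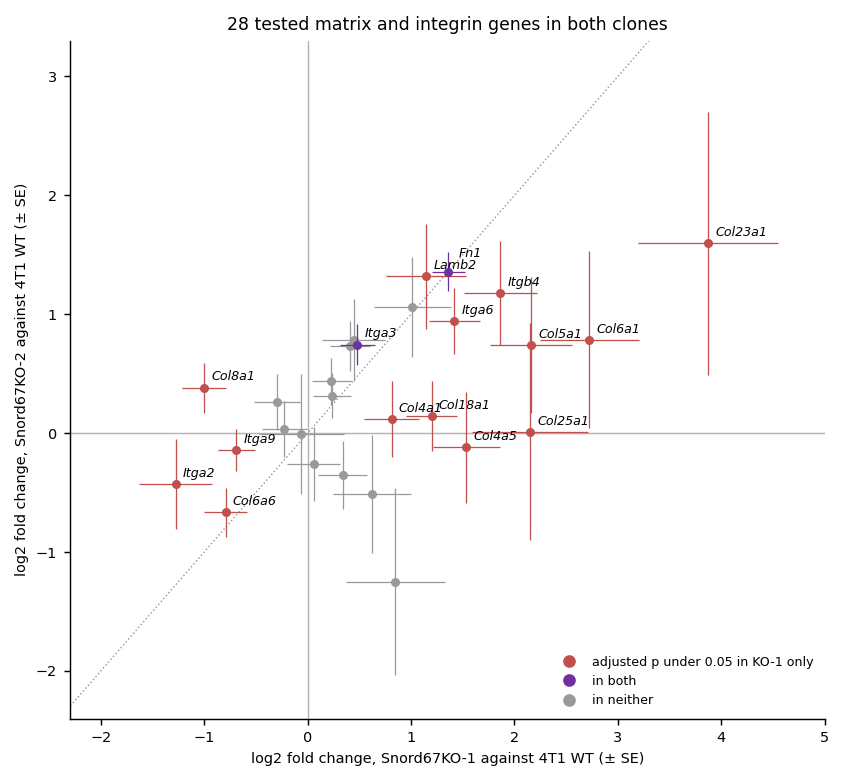
Log2 fold change of 28 tested members in Snord67KO-1 (x axis) and Snord67KO-2 (y axis) against the same 4T1 WT libraries, each ± SE, from all unmarked positions. Fn1 and Itga3 were called in both clones, and 14 members in Snord67KO-1 and not in Snord67KO-2.

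Fibronectin was the member with the most exon counts. Its gene lies on chromosome 1 from 71585520 to 71653200, minus strand (ENSMUSG00000026193.15). It had 376, 396 and 296 CPM in the 4T1 WT replicates, 1113, 1033 and 1119.7 CPM in Snord67KO-1 and 805, 841 and 1004 CPM in Snord67KO-2. The groups did not overlap, and the lowest knockout library was more than 2 times the highest 4T1 WT library. The edgeR fit gave a log2 fold change of 1.36 ± 0.16 (SE) in Snord67KO-1 (adjusted p = 9.76e-06) and 1.36 ± 0.16 (SE) in Snord67KO-2 (adjusted p = 2.07e-05). In exons alone the values were 1.48 ± 0.14 and 1.27 ± 0.14 (SE). The 2 clones were not called different (log2 difference 0.00, 95% interval -0.31 to 0.31, adjusted p = 1.00).

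The Fn1 counts were spread over 2278 positions. Along the transcript Fn1-201, 8315 bases long, the mean of Snord67KO-1 was higher than that of 4T1 WT in 17 of 17 bins of 500 bases, with ratios of 1.63 to 4.87. The mean of Snord67KO-2 was higher in 16 of 17 bins, with ratios of 0.920 to 4.32. The bin from 2501 to 3000 had the lowest ratio in both clones. It holds the unmarked position with the most Fn1 counts, which is described with the other high positions after the expression results. Fn1 mRNA has 3 alternatively spliced parts. The cassette exon of 270 bases (chromosome 1, 71603660 to 71603929), which encodes the extra domain A, had 32 counts, or 119 per kb of exon beside 307 per kb in the remaining Fn1 exons. The cassette exon of 273 bases (71613763 to 71614035), the extra domain B, had 0 counts in every library. The variable region (71597388 to 71597747) had 180 counts. The extra domain A share of Fn1 exon counts averaged 2.07% ± 1.08 for 4T1 WT, 0.450% ± 0.0825 for Snord67KO-1 and 1.04% ± 0.319 for Snord67KO-2 (SD, n = 3 each). These shares rest on 14, 9 and 9 counts, and the 3 WT and 6 knockout libraries were not separated (two-sided exact permutation test, p = 0.0714). The test pooled the libraries of both clones as if each were an independent knockout. In the paper, exon 32 of Fn1 was differentially spliced in both clones by RNA-seq and RT-PCR. Whether that exon is one of these parts was not examined. For the variable region the shares were 6.03% ± 3.67, 5.09% ± 0.934 and 4.46% ± 0.374 (SD, n = 3 each), with p = 0.571 in the same exact permutation test.

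The other glycoproteins were not called in any contrast over all counts. Thbs1, a matricellular protein that binds many matrix partners, had 64.5 ± 18.1, 64.6 ± 7.91 and 75.2 ± 13.0 exon CPM for 4T1 WT, Snord67KO-1 and Snord67KO-2 (SD, n = 3 each). Its log2 fold change in the average contrast was -0.02, with a 95% interval of -0.40 to 0.36. Sparc, a collagen-binding secreted protein, had 27.1, 53.2 and 11.2 CPM in 4T1 WT, 41.6, 85.4 and 43.7 CPM in Snord67KO-1 and 18.8, 19.0 and 23.6 CPM in Snord67KO-2. The groups overlapped. One position held 48 of the 182 Sparc counts. Without it the level was 15.9 ± 4.09 CPM in 4T1 WT, 45.7 ± 17.5 CPM in Snord67KO-1 and 20.5 ± 2.73 CPM in Snord67KO-2 (SD, n = 3 each). Over all counts the log2 fold change of Sparc in Snord67KO-1 was 0.62 ± 0.37 (SE, edgeR, adjusted p = 0.257), and with each position counted at most 1 time per library it was 1.31 ± 0.33 and was called (adjusted p = 0.00145).

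Among the integrin alpha chains, Itga3 and Itga6 rose. Itga3, which pairs with beta 1 and binds laminins, had 134, 142 and 109 CPM in 4T1 WT, 218, 207 and 217 CPM in Snord67KO-1 and 174, 212 and 239 CPM in Snord67KO-2. All 6 knockout libraries were above all 4T1 WT libraries. The log2 fold change was 0.61 ± 0.15 (SE) in the average contrast (edgeR, adjusted p = 0.0103), 0.48 ± 0.17 in Snord67KO-1 (adjusted p = 0.0480) and 0.74 ± 0.17 in Snord67KO-2 (adjusted p = 0.0185). In exons alone it was 0.65 in Snord67KO-1 (adjusted p = 0.00817). The Snord67KO-1 call over all positions was lost without any of the 3 Snord67KO-1 or 3 Snord67KO-2 libraries or without 4T1 WT replicate 1 or 3 (0.43 to 0.54), and the Snord67KO-2 call without 4T1 WT replicate 1 (0.74) or Snord67KO-2 replicate 2 (0.72) or 3 (0.71). Itga6, the alpha chain shared by the laminin receptors alpha 6 beta 1 and alpha 6 beta 4, had 42.0, 29.7 and 40.0 CPM in 4T1 WT, 157, 73.2 and 131 CPM in Snord67KO-1 and 56.5, 81.4 and 70.9 CPM in Snord67KO-2. Again no knockout library fell into the 4T1 WT range. Itga6 had a log2 fold change of 1.42 ± 0.25 (SE) in Snord67KO-1 (adjusted p = 0.000438), 0.94 ± 0.28 in Snord67KO-2 (adjusted p = 0.0636) and 1.18 ± 0.23 in the average contrast (adjusted p = 0.00222).

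Itgb4, the beta chain of the hemidesmosome integrin and partner of Itga6, also rose. It had 9.50, 6.26 and 14.4 CPM in 4T1 WT, 54.9, 32.5 and 45.1 CPM in Snord67KO-1 and 14.1, 27.1 and 23.6 CPM in Snord67KO-2. Only the lowest Snord67KO-2 library reached the 4T1 WT range. Itgb4 reached 10 counts in no 4T1 WT library. It passed the count minimum through the knockout libraries, so it had to be high there to be tested. Itgb4 had a log2 fold change of 1.86 ± 0.35 (SE) in Snord67KO-1 (edgeR, adjusted p = 0.000908) and 1.52 ± 0.35 in the average contrast (adjusted p = 0.00671). In Snord67KO-2 it was not called (1.18 ± 0.44, SE, edgeR, adjusted p = 0.144). Of its 112 exon counts, 9.82% lay in bases shared with an exon of the antisense lincRNA B230344G16Rik, and the table gives no strand. The most abundant integrin chain, Itgb1, had 251 ± 48.5, 355 ± 54.6 and 303 ± 65.9 CPM for 4T1 WT, Snord67KO-1 and Snord67KO-2 (SD, n = 3 each). It was not called, with a log2 fold change of 0.28 and a 95% interval of -0.04 to 0.59 in the average contrast. Itgav and Itgb5, chains of the vitronectin receptors, had log2 fold changes of -0.10 (-0.47 to 0.28) and -0.10 (-0.57 to 0.37) with 95% intervals in the same contrast.

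Itga2, the alpha chain of a collagen receptor, was the only integrin called lower that had its counts in exons. It had 70.5, 79.8 and 22.4 CPM in 4T1 WT, 25.2, 34.6 and 26.2 CPM in Snord67KO-1 and 51.8, 21.7 and 54.3 CPM in Snord67KO-2. The third 4T1 WT library lay below all 3 of Snord67KO-1. The log2 fold change in Snord67KO-1 fell by 1.27 ± 0.35 (SE) with an adjusted p of 0.0147 (edgeR). However, 71 of the 211 Itga2 counts were at 1 position, with 24, 27 and 0 counts in the 4T1 WT replicates. Without it the level was 32.6 ± 8.88 CPM in 4T1 WT, 19.7 ± 7.06 CPM in Snord67KO-1 and 37.8 ± 16.9 CPM in Snord67KO-2 (SD, n = 3 each). With each position counted at most 1 time per library, the decrease in Snord67KO-1 was called with a log2 fold change of -0.83. The call over all counts was lost without 4T1 WT replicate 1 (-1.14), Snord67KO-1 replicate 1 (-1.12) or Snord67KO-1 replicate 3 (-1.15).

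Of the laminin chains, Lamb2 and Lamc1 rose in the average contrast. Laminins are trimers of 1 alpha, 1 beta and 1 gamma chain, and the gamma 1 chain is part of most of them. Lamc1 had 54.3, 65.7 and 51.2 CPM in 4T1 WT, 92.0, 85.4 and 94.6 CPM in Snord67KO-1 and 70.6, 106 and 96.9 CPM in Snord67KO-2. The knockout libraries were all above the 4T1 WT libraries. The log2 fold change was 0.57 ± 0.18 (SE) in the average contrast (edgeR, adjusted p = 0.0403), and in exons alone it was 0.77 ± 0.18 (adjusted p = 0.00737), with both clones called. The call over all positions was lost without any 1 of the Snord67KO-1 libraries, 4T1 WT replicate 1 or 3, or Snord67KO-2 replicate 2 or 3 (0.49 to 0.60). Lamb2 had 7.83 to 9.60 CPM in 4T1 WT, 20.4 to 28.2 CPM in Snord67KO-1 and 9.41, 21.7 and 30.7 CPM in Snord67KO-2, a log2 fold change of 1.23 ± 0.36 (SE) in the average contrast (adjusted p = 0.0300). One Snord67KO-2 library, replicate 1, was within the 4T1 WT range. Lamb2 reached 10 counts in no 4T1 WT library, so it had to be high in knockout libraries to be tested. The call was lost without 4T1 WT replicate 1 or 2 or Snord67KO-2 replicate 2 or 3 (1.08 to 1.23). Lamb1, the most abundant laminin chain per length, was not called (log2 fold change 0.33, 95% interval 0.00 to 0.66).

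**Figure D4:**
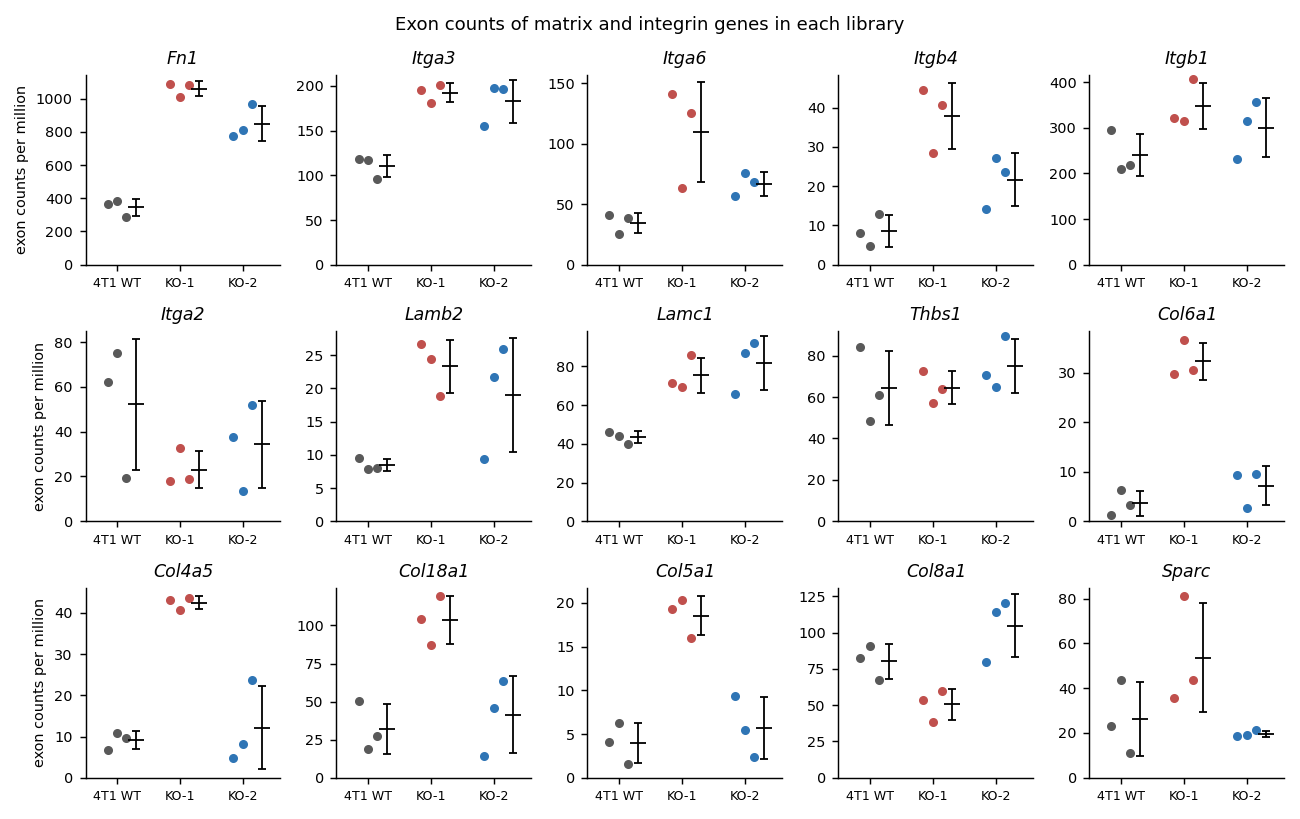
Exon CPM of 15 members in each library (points), with the mean and SD of the 3 libraries of a genotype beside them (bars), each panel starting at 0. Fn1, Itga3, Itga6 and Lamc1 are above all 4T1 WT libraries in all 6 knockout libraries, Col6a1, Col4a5, Col18a1 and Col5a1 are highest in the 3 Snord67KO-1 libraries, and Col8a1 is lowest in them.

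Several collagens rose in Snord67KO-1 and were called different between the clones. Col6a1, a chain of the beaded filament collagen VI, had 1.36, 7.83 and 3.20 CPM in 4T1 WT, 29.7, 38.6 and 32.0 CPM in Snord67KO-1 and 9.41, 2.71 and 9.45 CPM in Snord67KO-2. Its log2 fold change in Snord67KO-1 was 2.72 ± 0.48 (SE) (edgeR, adjusted p = 0.000491), and Snord67KO-2 was lower than Snord67KO-1 by 1.94 ± 0.52 on the log2 scale (log2 difference -1.94, adjusted p = 0.0307). Col4a5, a chain of type IV collagen in basement membranes, had 10.9, 18.8 and 16.0 CPM in 4T1 WT, 53.4, 42.7 and 61.2 CPM in Snord67KO-1 and 4.71, 8.14 and 23.6 CPM in Snord67KO-2. The log2 fold change was 1.53 ± 0.32 (SE) in Snord67KO-1 (adjusted p = 0.00220) and -0.12 ± 0.47 in Snord67KO-2 (adjusted p = 0.957), a difference of -1.65 ± 0.39 between the clones (adjusted p = 0.0146). Col6a1 reached 10 counts only in the 3 Snord67KO-1 libraries, so it had to be high there to be tested. In a fit of all genes with at least 1 count, its log2 fold change in Snord67KO-1 was 2.61 (adjusted p = 1.3e-05). In exons alone both differences between the clones were called in the same direction. Over all positions, the difference of Col6a1 was lost without any 1 of the Snord67KO-2 libraries (-1.53 to -2.25), and that of Col4a5 without Snord67KO-2 replicate 1 (-1.45) or 2 (-1.38).

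Col18a1, a basement membrane collagen whose C-terminal fragment is endostatin, had 46.5 ± 17.0 CPM in 4T1 WT, 129 ± 16.5 CPM in Snord67KO-1 and 47.3 ± 25.1 CPM in Snord67KO-2 (SD, n = 3 each). It rose in Snord67KO-1 with a log2 fold change of 1.20 ± 0.25 (edgeR, adjusted p = 0.00181). In exons alone this was 1.52, and the difference between the clones was no longer called (-1.10, adjusted p = 0.0640). Col5a1, a chain of collagen V, which limits fibril diameter, had 5.87 ± 2.49, 32.9 ± 0.521 and 10.5 ± 4.50 CPM (SD, n = 3 each), a log2 fold change of 2.16 ± 0.40 (SE) in Snord67KO-1 (adjusted p = 0.000742). Its exonic share was 56.6%, and it too reached 10 counts in Snord67KO-1 alone (2.05 in the fit of all genes with at least 1 count, adjusted p = 0.000291). Col4a1 rose in Snord67KO-1 by 0.81 ± 0.27 on the log2 scale (adjusted p = 0.0379), while its head-to-head neighbor Col4a2 was not called (0.34, adjusted p = 0.335). The call of Col4a1 was lost without 4T1 WT replicate 3 (0.54), Snord67KO-1 replicate 1 (0.84) or 3 (0.74), or Snord67KO-2 replicate 2 (0.80).

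Col8a1, a short-chain collagen of the subendothelial matrix, fell in Snord67KO-1. It had 99.0, 116 and 73.6 CPM in 4T1 WT, 57.9, 42.7 and 69.9 CPM in Snord67KO-1 and 89.4, 133 and 137 CPM in Snord67KO-2. It was lower in every Snord67KO-1 library than in any other library. The mean fell from 96.1 ± 21.3 to 56.8 ± 13.6 CPM in Snord67KO-1 (SD, n = 3 each, edgeR, adjusted p = 0.00219). Snord67KO-2 was not called (log2 fold change 0.38 ± 0.21, SE), with a log2 difference between the clones of 1.38 ± 0.22 (adjusted p = 0.000751).

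Both Col23a1 and Col25a1 were called with counts that lay outside exons. Col23a1, a transmembrane collagen, had 1, 1 and 1 counts in the 4T1 WT replicates, 31, 11 and 14 in Snord67KO-1 and 0, 0 and 5 in Snord67KO-2, none of them in exons. Its log2 fold change in Snord67KO-1 was 3.87 ± 0.68 (SE) (edgeR, adjusted p = 0.000479). It reached 10 counts in the Snord67KO-1 libraries alone, and the fit of all genes with at least 1 count gave 3.75 (adjusted p = 3.15e-07). The call of the average contrast (2.73) was lost without Snord67KO-2 replicate 3 (0.42) and without any 1 of the 4T1 WT libraries (2.62 to 2.82). Col25a1 had 10, 1 and 1 counts in 4T1 WT, 34, 7 and 21 in Snord67KO-1 and 0, 2 and 4 in Snord67KO-2, with 1.25% of its counts in exons and a log2 fold change of 2.15 ± 0.56 in Snord67KO-1 (adjusted p = 0.00985). Snord67KO-1 replicate 1 was the highest library for both, as it was for outside-exon counts of the members as a whole. The part of that library in these results was not tested beyond leaving it out. Col6a6 was called lower in the average contrast (log2 fold change -0.73 ± 0.17, SE, adjusted p = 0.00803) and Itga9 in Snord67KO-1 (-0.69 ± 0.18, adjusted p = 0.00956), both through the intronic stretches. The first call was lost without 4T1 WT replicate 1 (-0.56) and the second without Snord67KO-1 replicate 1 (-0.56). With each position counted at most 1 time per library, Col6a6 was at 0.081 in the average contrast and Itga9 at -0.38 in Snord67KO-1 (adjusted p = 0.0549), neither called.

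Genes that act on the matrix were grouped into 4 lists. Of 27 collagen processing genes, 11 were tested, and P4ha1, a subunit of prolyl 4-hydroxylase, was the 1 called in the average contrast. In exons alone 3 of 10 tested were called higher (P4ha1, P4hb and Plod3), with a median of 0.57. Over all genes, 6.61% were called higher and 5.39% lower in this contrast, and 8.63% and 6.64% in exons alone. P4ha1 had 11.1 ± 1.52, 58.5 ± 3.89 and 33.0 ± 4.11 CPM for 4T1 WT, Snord67KO-1 and Snord67KO-2 (SD, n = 3 each), a log2 fold change of 1.87 ± 0.27 (SE) in the average contrast (edgeR, adjusted p = 0.000140). The median log2 fold change of the list was 0.39. Of 25 proteases and inhibitors, 11 were tested, 4 were higher (Mmp3, Mmp9, Mmp10 and Serpine2) and 1 was lower (Adamts1), and the median was 0.85. In exons alone 7 were higher, with Adam10, Mmp14 and Plau added, and 1 was lower. Mmp3, stromelysin 1, which cleaves several matrix proteins, had 12.0 ± 0.941, 140.5 ± 26.1 and 129.8 ± 14.5 CPM (SD, n = 3 each), and the groups were far apart, with a log2 fold change of 3.36 ± 0.24 (adjusted p = 1.41e-08). Serpine2, an inhibitor of serine proteases, rose from 6.55 ± 1.21 CPM to 25.5 ± 0.864 and 64.8 ± 14.4 CPM (SD, n = 3 each) in the 2 clones, which differed from each other (log2 difference 1.67, adjusted p = 0.000961). Mmp10, stromelysin 2, had 1.51 ± 0.132, 18.8 ± 4.25 and 19.4 ± 13.1 CPM (SD, n = 3 each). P4ha1, Mmp3, Serpine2 and Mmp10 reached 10 counts in no 4T1 WT library. They passed the count minimum through the knockout libraries, so they had to be high there to be tested.

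Of 40 other glycoproteins and proteoglycans, 14 were tested, with 4 higher (Gpc1, Ltbp2, Ltbp3 and Spp1) and 2 lower (Ctgf and Cyr61) in the average contrast and a median of 0.35. Spp1, osteopontin, an integrin ligand, had the smallest p, with a log2 fold change of 4.28 ± 0.19 (SE). Ltbp3, which binds latent TGF-beta in the matrix, had 56.8 ± 18.4, 186 ± 11.6 and 191 ± 27.5 CPM (SD, n = 3 each). Cyr61 had a log2 fold change of -1.74 ± 0.29. In exons alone 3 of 10 tested were higher (Gpc1, Ltbp3 and Spp1) and 0 lower, since neither Ctgf nor Cyr61 reached the count minimum there. Of 26 integrin adaptors and signalling genes, 19 were tested, 1 was higher and 4 were lower, among them Lims1, Parva and Tns3, and the median was -0.15. In exons alone the counts were the same. Tns4, which binds the beta 1 tail, had 25.2 ± 11.2, 107 ± 8.36 and 64.5 ± 15.1 CPM (SD, n = 3 each), a log2 fold change of 1.62 ± 0.23 (edgeR, adjusted p = 0.000121). Lims1, the adaptor PINCH, had a log2 fold change of -0.92 ± 0.21 (adjusted p = 0.00622). Over all genes, the shares called in this contrast were again 6.61% higher and 5.39% lower, and 8.63% and 6.64% in exons alone. No test compared these lists with other genes.

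The positions with the most reads in member exons are shown because 1 of them held 71 of the 211 Itga2 counts and another 48 of the 182 Sparc counts, whereas the highest Fn1 position held 119 of 3648. Each sequence is 21 bases of the GENCODE M21 transcript on GRCm38, 5′ to 3′, ending 10 bases after the position, which is the eleventh base. Capitals mark the bases after the position that equal the most common bases after marked positions in exons of all genes, which read CTGTAGGC. The first 2 lines are unmarked Fn1 positions (chr1:71628076 and chr1:71605920, exons 17 and 31 of 46), followed by unmarked positions in Itga2 (chr13:114859551, exon 17 of 30), in the 3′ UTR of Sparc (chr11:55395095, exon 10 of 10) and in Lamb1 (chr12:31324280, exon 28 of 33). The last 4 lines are the marked positions with the most counts, in Fn1 (chr1:71595679, chr1:71597310 and chr1:71625996) and Sparc (chr11:55395020).
Fn1 71628076: ggtggagtagaCcccAGGCac
Fn1 71605920: cccaaaaatggCctagGaCca
Itga2 114859551: gcagaagtgttCTGagcaCca
Sparc 55395095: tgctgtgagacCTGagGaCcc
Lamb1 31324280: gcaacgaggacCTGcgGaacc
Fn1 71595679 (marked): agaggttgtgaCTGTgGGCaa
Fn1 71597310 (marked): ttcatgccaacCaGTtGGCac
Fn1 71625996 (marked): aaagcaatcctCTGacGGCac
Sparc 55395020 (marked): ataatccagagCTGTgGcaca

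Among the marked exon positions of the members, 96.9% of 260 had at least 5 of these 8 bases, beside 2.26% of 8131 unmarked positions. By counts, such unmarked positions held 4.33% of the unmarked exon counts, from 1.29% in 4T1 WT replicate 3 to 10.6% in 4T1 WT replicate 2. The 8 bases were read from marked positions of all genes, members included, so a closer match of marked positions was set in advance. The linker for 3′ ends in the study's list of oligonucleotides begins with the same 8 bases. What this means for marked or unmarked positions was not tested. The unmarked Fn1 position 71628076 had 5 of the 8 and the Sparc position 55395095 had 5 of the 8, while the Itga2 and Lamb1 positions had 4 of the 8 and the Fn1 position 71605920 had 3 of the 8. The Fn1 position 71628076 had 14, 34 and 2 counts in the 4T1 WT replicates, 26, 29 and 4 in Snord67KO-1 and 1, 2 and 7 in Snord67KO-2. The Itga2 position had 24, 27 and 0, then 3, 11 and 0, then 0, 1 and 5 counts in the same order. The Lamb1 position had 8, 13 and 0, then 13, 7 and 0, then 0, 0 and 3 counts. In each of these the third replicate of 4T1 WT and of Snord67KO-1 had the fewest counts of its genotype, although 3 and 0 counts, as in Snord67KO-1 replicates 1 and 3 at the Itga2 position, are not apart by counting error. The marked share of the library was 2.57% in 4T1 WT replicate 3 and 1.43% in Snord67KO-1 replicate 3, and 4.95% to 17.8% in the other libraries of these genotypes. The marked Fn1 position 71595679, the highest of all marked member positions, had 36, 34 and 10 counts in 4T1 WT, 35, 49 and 10 in Snord67KO-1 and 5, 8 and 20 in Snord67KO-2.

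**Figure D5:**
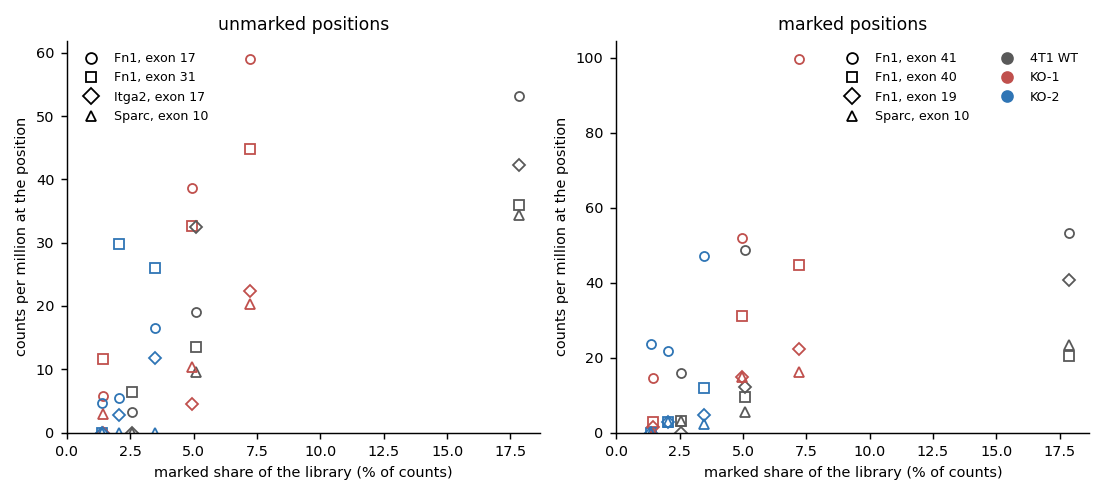
CPM at the 4 unmarked (left) and 4 marked (right) exon positions of members with the most counts, against the share of the library's counts at marked positions, with 1 point per library and position. The 4 libraries with a marked share up to 2.57% lie below the 4 with 4.95% or more at 7 of the 8 positions, the unmarked one in Fn1 exon 31 being the exception. Snord67KO-2 replicate 3, at 3.46%, is in neither group. Snord67KO-2 replicates 1 and 2 are in the low group and no Snord67KO-2 library is in the high group, so marked share is mixed with genotype and depth. Some gaps lie within counting error, as at Itga2 with 2.71 against 4.45 CPM, since 0 counts allow up to 14.1 CPM in Snord67KO-2 replicate 1. No share over all positions is given beside this count. Counts at the 4 marked positions are themselves part of the marked share, and the 8 positions were picked by their counts.

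Positions were also compared one by one, since a change in ribose methylation would appear at a position and not over a gene. At least 10 counts in at least 3 libraries were found at 54 member positions, 28 in Itga9, 23 in Col6a6, 2 in Fn1 and 1 in Itga2. No member position was called by count in the average contrast with edgeR (lowest adjusted p = 0.410), beside 1 of 1698 positions of all genes (0.0589%). At an unadjusted p under 0.05 there were 3 member positions. DESeq2 called none of the 54 either (2 at an unadjusted p under 0.05). Relative to the rest of the gene, 0 of the 54 were called (lowest adjusted p = 0.250, 2 at an unadjusted p under 0.05), beside 0 of 1676 positions (0.0%). For the other 79 members no position reached the minimum, so a change at a single position was not detectable at this depth.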

How the data were processed

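RibOxi-seq was analysed in 9 oxidized libraries of 4T1 WT, Snord67KO-1 and Snord67KO-2 cells (3 each). The authors trimmed reads with cutadapt, merged pairs with pear, mapped them and deposited unnormalized counts of read 3′ ends per position. The submitters' processing notes name STAR and mm10, and the methods name m39. Of the member positions, 99.97% lay inside the GENCODE M21 gene on GRCm38. The meaning of the mispriming column, the handling of multimapping reads and the removal of duplicates are not given in the sources used here.

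Unmarked counts were summed per gene, and genes reaching 10 counts in 3 or more libraries were tested with edgeR 4.0.16 (TMM, quasi-likelihood, R 4.3.3) in 1 fit of all 9 libraries, with Benjamini-Hochberg adjustment over all genes and a threshold of 0.05. Standard errors were derived from the F statistic, and 95% intervals are 1.96 SE wide on each side. Positions were tested likewise, and again with the log of the other counts of the gene plus 1 as an offset (at least 50 other counts). CPM used all counts of a library. DESeq2 1.42.0 was an alternative, and others covered normalization, filters, exons, position caps, a replicate block and each library left out. The test was checked on simulated data. Replicates of a genotype differed beyond sampling noise (chi-square per degree of freedom 1.48 to 9.59).

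Members and lists were chosen with earlier results of these data known. Named were all called members, the 15 of highest CPM, the highest of each family, Fn1, Sparc, Tnc and Thbs1, up to 3 called genes per list, and the 6 unmarked and 4 marked positions with most counts. The 5 unmarked exon positions were shown after their values were seen. Some genes that the rule names are not reported here.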

Additional observations from a re-analysis of the deposited data

Results flagged for a closer look

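Members differed between the clones in edgeR's test of Snord67KO-2 against Snord67KO-1. The log2 difference was 1.38 for Col8a1, which was higher in Snord67KO-2. It was -1.05 for Col18a1, -2.27 for Col23a1, -1.65 for Col4a5 and -1.94 for Col6a1, which were lower in Snord67KO-2. With 1 library left out, the call of Col18a1 was lost without any Snord67KO-2 library or Snord67KO-1 replicate 1 or 3 (-0.83 to -1.26), that of Col23a1 without 4T1 WT replicate 1 (-2.27) or Snord67KO-2 replicate 1 (-1.98) or 2 (-1.66), that of Col6a1 without any Snord67KO-2 library (-1.53 to -2.25) and that of Col4a5 without Snord67KO-2 replicate 1 (-1.45) or 2 (-1.38). Each knockout genotype is 1 clone, so a difference between the clones cannot be told apart from clonal variation. Snord67KO-2 had fewer counts per library than Snord67KO-1. Col6a1 and Col23a1 reached 10 counts in Snord67KO-1 libraries alone, so they had to be high there to be tested.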

How the results depend on the processing

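The calls that held in every alternative run were those of Fn1 in Snord67KO-2 and in the average contrast, Itga6, Itgb4, Col4a5 and Col25a1 where they were tested (Itga6 and Itgb4 also in the average contrast, the others in Snord67KO-1), and Col8a1 between the clones. Those of Col5a1, Col6a1 and Col23a1 in Snord67KO-1 also held, for genes that passed the count minimum through that genotype alone. Those of Fn1 and Col18a1 in Snord67KO-1 were lost with positions outside exons only. Of 595 planned recomputations of single genes, 482 kept the call, 112 kept the direction without the call and 1 reversed, Col6a6 in the average contrast (log2 fold change 0.081) with each position counted at most 1 time per library. Among those added after the data were examined, Itga3 reversed in Snord67KO-1 (-0.31) with positions outside exons only.

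The number of members called, with the share of all genes called in the same fit in parentheses, was 4 (5.45%) in the average contrast with DESeq2, 3 (6.23%) outside exons and 4 (6.61%) with DESeq2 in exons. For Snord67KO-1 it was 25 (9.61%) with at least 1 count in 1 library, 4 (25.9%) outside exons and 7 (9.56%) with DESeq2 in exons. For Snord67KO-2 it was 5 (7.02%) with each position counted at most 1 time per library, 1 (2.57%) outside exons and 5 (6.22%) with the replicate block in exons. Between the clones it was 2 (2.23%) with DESeq2, 11 (2.92%) with at least 1 count in 1 library, 13 (12.4%) with each position counted at most 1 time per library, 1 (17.3%) outside exons and 2 (1.45%) with DESeq2 in exons. The number of members tested changed with the filter and with the positions used, so these numbers cannot be compared between such fits. Fewer genes and counts entered the fits outside exons. The other causes were not tested.

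With 1 library left out, the average contrast had 5 calls (without Snord67KO-2 replicate 3) to 9, Snord67KO-1 had 6 (without Snord67KO-1 replicate 1) to 16, Snord67KO-2 had 1 (without Snord67KO-2 replicate 3) to 4 and the clones differed in 2 (without Snord67KO-2 replicate 1 or 2) to 9. The share of all genes called in these fits was 8.13% to 11.2%, 11.1% to 19.4%, 1.34% to 4.84% and 1.8% to 9.89%. In exons the average contrast had 5 without Snord67KO-2 replicate 3, Snord67KO-1 had 7, 7 and 8 without each of its own libraries, Snord67KO-2 had 5 without 4T1 WT replicate 1, 4T1 WT replicate 3 or Snord67KO-1 replicate 2, and the clones differed in 2 without any library of Snord67KO-1 or Snord67KO-2 replicate 1 or 2, and in 3 without Snord67KO-2 replicate 3. The share of all genes called in exons was then 11% to 14%, 11.8% to 19.8%, 1.93% to 6.93% and 1.36% to 6.88%.

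The exonic share of member counts moved by less than 1 SD with marked positions included. Without TMM the median log2 fold change of all genes was 0.18 in Snord67KO-1, -0.14 in Snord67KO-2 and -0.33 between the clones. With the replicate number as a block, 11 members were called in the average contrast, 15 in Snord67KO-1, 4 in Snord67KO-2 and 5 between the clones, and 32 of 35 gene calls were kept. The correlations of same-numbered libraries were -0.12 to 0.22, and those of different-numbered libraries -0.25 to 0.12. The highest were 4T1 WT with Snord67KO-1 at replicate 2 (0.22) and replicate 3 (0.18), while replicate 1 had -0.05. The numbers were not taken as pairs in the main fit, and whether these 2 genotypes share a replicate effect was not tested beyond the block. Of 15905 member positions, 54 had enough counts to be tested.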
